A study of Homo sapiens with 24 samples.

Results

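Read counts were examined at 10 loci of human pluripotent stem cells and of the genes that face them, taken by name from tables of 61248 features. Of these names, 7 belong to genes or host transcripts known for their activity in pluripotent cells (POU5F1, TDGF1, MIR302CHG, L1TD1, LIN28A, DNMT3B and NODAL). The other 3 belong to genes annotated on the strand opposite one of them, namely TCF19 facing POU5F1, LRRC2 facing TDGF1 and LARP7 facing MIR302CHG. All 10 names were present in each of the 24 libraries. The cells were H7, an established human embryonic stem cell line, grown as control line 1, control line 2, BRAT1 knockout line 1 and BRAT1 knockout line 2. BRAT1 is a partner of the endonuclease module of Integrator, a complex that cleaves nascent RNA. Each line was collected undifferentiated at day 0 and as ventral neural progenitors at day 14, in biological replicates A, B and C, so that each genotype and day had 6 poly(A) RNA libraries made by Click-Seq. The sources used here do not say how the lines were derived or whether a line is 1 clone, and p-values below treat the 3 replicates of a line as independent.

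Pluripotency rests on a small network of factors that is dismantled when stem cells take on a neural fate. POU5F1 encodes the transcription factor OCT4 at the centre of that network. MIR302CHG is the host transcript of the miR-302 cluster, whose microRNAs restrain cell cycle inhibitors and differentiation genes. NODAL is a ligand of the TGF-beta family, TDGF1 (Cripto) its co-receptor. LIN28A blocks maturation of let-7 microRNAs, DNMT3B is a de novo DNA methyltransferase, and L1TD1 is an RNA-binding protein derived from a retrotransposon. Of the facing genes, LARP7 binds and stabilises the 7SK RNA that holds the elongation factor P-TEFb inactive, TCF19 is a nuclear protein with a PHD finger, and LRRC2 carries leucine-rich repeats.

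In these tables a name often held the reads of the opposite strand. TALAM1, the antisense partner of the abundant nuclear RNA MALAT1, held 6.91% of all counts, and MALAT1 itself held 0.0044%. Where an antisense gene overlaps a coding gene and both names together hold 100 counts or more, the antisense name held the larger number in 1604 of 2283 pairs (70.3%). Values are therefore given for both names of each locus, always as counts under a name, and which strand the RNA came from was not tested. A lower count can come from fewer cells of a type or from less RNA per cell, and bulk libraries cannot tell these apart.

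The microRNAs of the MIR302CHG locus are shown because they are the reason this transcript is followed in stem cells. All 5 hairpins lie within introns of LARP7 on the opposite strand (GRCh38 chromosome 4), and none of them had a count in any library, so the counts below are those of the host transcript's name and not of mature microRNAs. The mature 3p sequences from RefSeq (GRCh38.p14, minus strand) follow, 5′ to 3′, with the seed at bases 2 to 8 in capitals. Each set of coordinates is that of the mature sequence.
hsa-miR-302a-3p (chr4:112648186-112648208): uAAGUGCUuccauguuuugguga
hsa-miR-302b-3p (chr4:112648489-112648511): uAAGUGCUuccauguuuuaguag
hsa-miR-302c-3p (chr4:112648366-112648388): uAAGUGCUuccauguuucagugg
hsa-miR-302d-3p (chr4:112648006-112648028): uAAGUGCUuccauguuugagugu
hsa-miR-367-3p (chr4:112647877-112647898): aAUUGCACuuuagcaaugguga
The 4 miR-302 sequences share 1 seed, which 12 mature human microRNA names in the table carry, and they differ from each other at 2 or 3 of 23 positions, none before position 18. The miR-367 seed is another, carried by 6 names.

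Promoter windows of 300 bases (250 before and 50 after an annotated start) were present in the RefSeq table for 7 of the 10 names, 9 windows in all. MIR302CHG has 2 annotated starts, and both windows are printed because this name still held many counts at day 14. Whether those counts came from either start, or from this strand, was not tested. In them the octamer ATGCAAAT, the binding sequence of POU-domain factors such as OCT4, the HMG box CTTTGT and the TATA box TATAAA are in capitals, with matches read on both strands.
MIR302CHG upstream start (chr4:112650002-112650301, minus strand): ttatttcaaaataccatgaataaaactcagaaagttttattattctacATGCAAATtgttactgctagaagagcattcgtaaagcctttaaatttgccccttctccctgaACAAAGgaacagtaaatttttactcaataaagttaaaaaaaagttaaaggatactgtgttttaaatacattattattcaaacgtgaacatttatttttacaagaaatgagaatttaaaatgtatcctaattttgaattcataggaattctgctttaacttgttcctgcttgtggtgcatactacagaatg
MIR302CHG inner start (chr4:112648654-112648953, minus strand): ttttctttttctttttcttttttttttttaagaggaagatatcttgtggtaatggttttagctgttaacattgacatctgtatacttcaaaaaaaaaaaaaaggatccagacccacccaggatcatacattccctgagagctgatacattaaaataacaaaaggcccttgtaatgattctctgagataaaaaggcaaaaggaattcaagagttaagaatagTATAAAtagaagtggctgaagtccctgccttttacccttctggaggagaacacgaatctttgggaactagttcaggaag
The upstream window held 1 octamer, a motif found in 1.77% of 35116 windows, and 1 HMG box on the opposite strand (16.1% of windows). The inner window held 1 TATA box (11.5% of windows), and neither window held GGGCGG (45% of windows) or CCAAT (34.6%). Their GC content was 28% and 34.7%, where the median window had 58.7%. No octamer or TATA box lay in the windows of TCF19, LRRC2, LARP7, L1TD1, DNMT3B and NODAL, and CTTTGT was found in those of L1TD1 and DNMT3B. GGGCGG lay in the windows of TCF19, L1TD1 and NODAL and in both windows of LARP7. These matches describe letters in a window and not bound sites.

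Positions are given on GRCh38 from GENCODE release 29. POU5F1 (chromosome 6, 31164337 to 31180731, minus strand) and TCF19 (31158542 to 31167159, plus strand) share 248 bp of exon, 8.56% of the exons of POU5F1. TDGF1 (chromosome 3, 46574534 to 46582463, plus strand) and LRRC2 (46515423 to 46580099, minus strand) share 110 bp. MIR302CHG (chromosome 4, 112646476 to 112650051, minus strand) lies wholly inside LARP7 (112636964 to 112657592, plus strand), and 302 bp, 40.6% of its exons, face LARP7 exons. The 3′ ends of 8 of 9 POU5F1 transcripts, 3 of 5 TDGF1 transcripts and 3 of 3 MIR302CHG transcripts fall inside the body of the facing gene, and none of these ends falls in one of its exons. In the other direction, 1 of 4 TCF19 transcripts ends inside the body of POU5F1, and that end lies in an exon. Of 15 LARP7 transcripts, 6 end inside the body of MIR302CHG and 5 in its exons, and none of 4 LRRC2 transcripts ends inside TDGF1. NODAL (chromosome 10, 70432315 to 70447951, minus strand) shares 698 bp of exon with ENSG00000280401, an unnamed feature. L1TD1 (chromosome 1, 62194831 to 62212328, plus strand) has only a processed pseudogene, ENSG00000237227, opposite its body. LIN28A (chromosome 1, 26410778 to 26429722, plus strand) and DNMT3B (chromosome 20, 32762385 to 32809356, plus strand) have no gene on the other strand.

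BRAT1, the targeted gene, was read first as a check of the labels. At day 14 its counts were 414 to 1077 in the 6 control libraries, 21 to 63 in knockout line 1 and 227 to 262 in knockout line 2, so no knockout library reached a control library. The edgeR log2 fold change was -2.47 (SE 0.57, adjusted p = 0.0111). At day 0 the name held 0 to 10 counts in every library and checks nothing. Total counts were 2228736 to 3726227 at day 14 and 1407832 to 2143871 at day 0. Summed over 10 neural progenitor markers, controls had 25.2 to 103 CPM (counts scaled to the library total) at day 0, with 6 markers at 0, and 189 to 316 CPM at day 14 with none at 0. All 6 mesendoderm markers were at 0 in day 0 controls, and their summed level was at most 5.61 CPM in any other library. The 9 pluripotent stem cell markers summed to 88.3 to 212 CPM in day 0 controls and 55.2 to 112 CPM in day 14 controls, where TDGF1 was at 0. LIN28A alone had 39.5 to 75.6 CPM in those day 14 controls. The 2 features facing genes of this list summed to 536 to 779 CPM in day 0 controls and 0 to 1.29 CPM in day 14 controls.

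**Figure D1:**
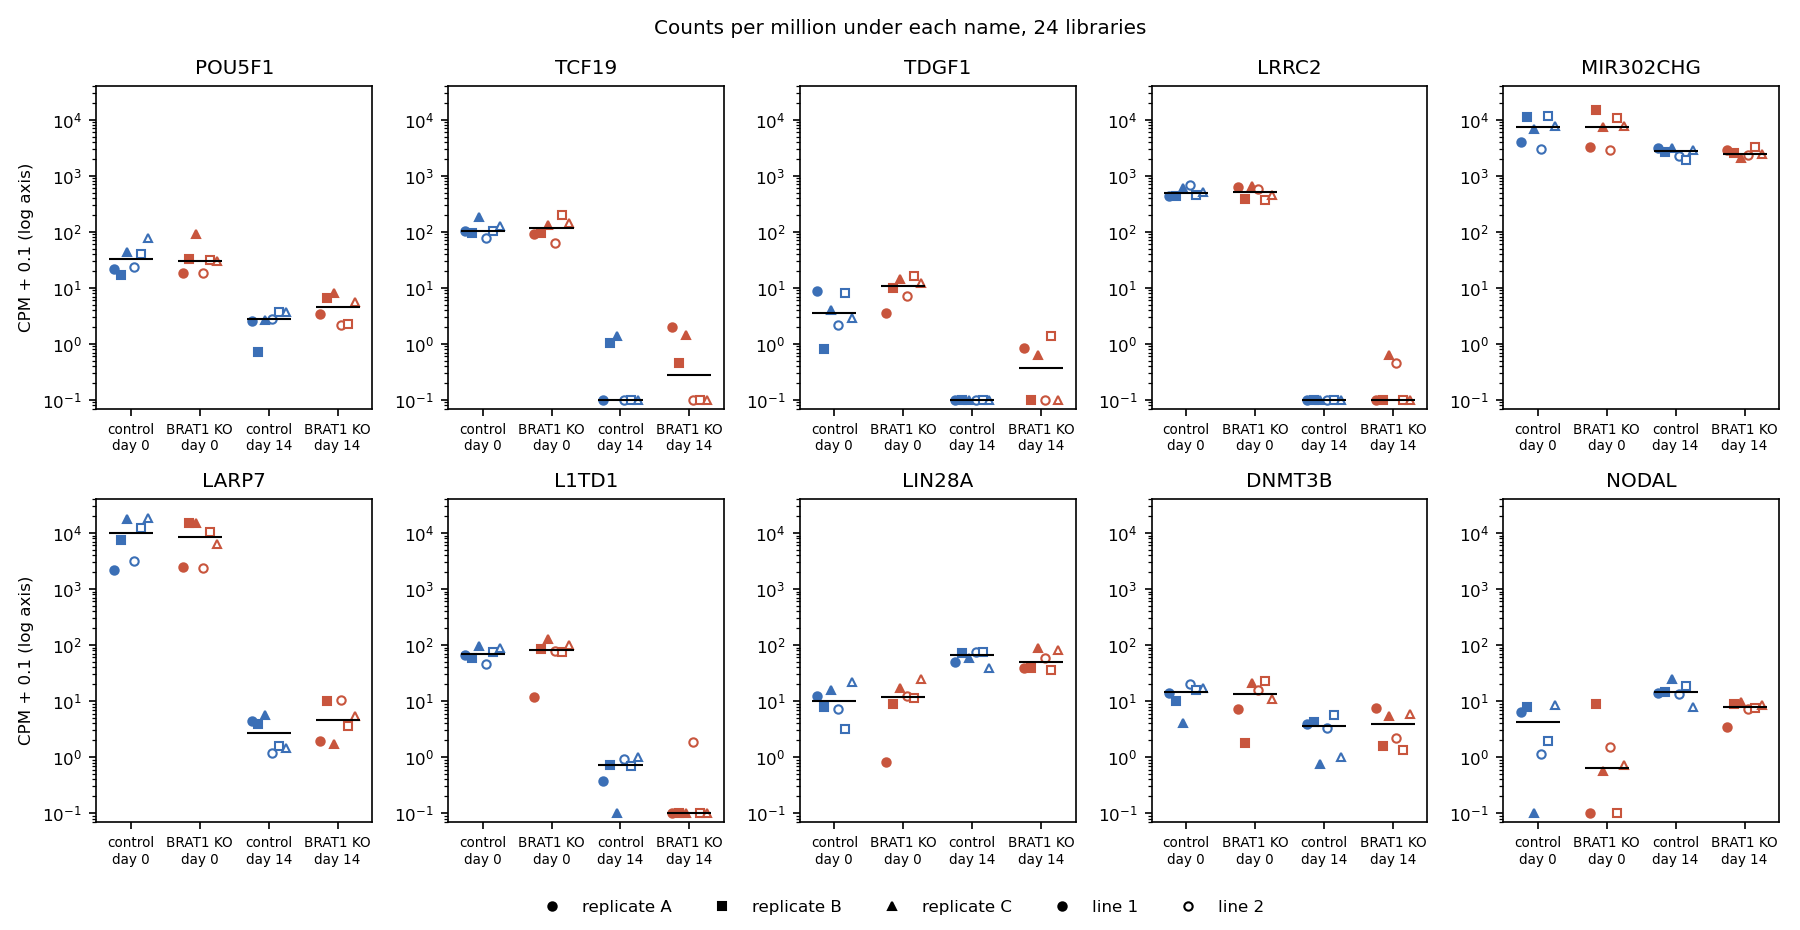
Level of each of the 10 names in every library, as CPM plus 0.1 on a log axis, by genotype and day. Points are libraries (blue control, red BRAT1 knockout, shape by replicate letter, filled line 1, open line 2) and bars are group medians. Points at the bottom of a panel are libraries with no count, as in all 6 day 14 controls for TDGF1 and LRRC2.

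The first comparison asked how these loci changed between stem cells and day 14 progenitors. In controls 8 of the 10 names were lower at day 14 by edgeR, where 14.4% of all 10971 features tested were lower, and 1 of 10, LIN28A, was higher, where 28.4% were higher. In knockouts the counts were again 8 lower, against a background of 16.5%, and 1 higher, against 29.8%. TCF19, TDGF1, LRRC2 and L1TD1 passed the filter on low counts only through day 0, so they could hardly come out higher. NODAL passed only through day 14, so it could hardly come out lower. The largest losses stood under the facing names LRRC2, LARP7 and TCF19 and under L1TD1. Log2 fold changes of all features had a median of 0.60 in controls and 0.65 in knockouts with TMM scaling, and 0.83 and 1.04 with RLE scaling, so each value below is best read against that shift.

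POU5F1, read under its own name, fell to low counts. Day 0 controls had 24 to 112 counts, with a lowest level of 17.0, a median of 32 and a highest of 77.4 CPM. Day 14 controls had 2 to 12 counts, at 0.63, 2.66 and 3.59 CPM. Every day 0 control library was above every day 14 control library. By edgeR this was a log2 fold change of -4.30 with an SE of 0.58 (adjusted p = 5.41e-07), and pooled CPM differed 14.1-fold. In knockouts the levels were 18.2, 30.5 and 89.6 CPM at day 0 and 2.10, 4.38 and 8.05 CPM at day 14, with no overlap between days (log2 fold change -3.53, SE 0.55, adjusted p = 5.13e-06).

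TCF19, facing POU5F1, held more counts than POU5F1 at day 0 and almost none at day 14. Its counts in day 0 controls were 134 to 320, at 78.6, 103 and 183 CPM for the lowest, median and highest library. At day 14 they were 0 to 5 over all 12 libraries, at most 1.29 CPM in controls and 1.86 CPM in knockouts. The day 0 and day 14 libraries stood far apart in both genotypes. All day 14 counts under TCF19 were in line 1, for controls and knockouts alike, and this name was not tested between lines at day 14. Log2 fold changes were -8.60 (SE 0.70, adjusted p = 2.26e-11) in controls and -8.04 (SE 0.67, adjusted p = 2.68e-11) in knockouts, and the ratio of pooled CPM was 314 and 199.

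TDGF1, the NODAL co-receptor, had few counts under its own name. On day 0 they were 18, 1 and 7 in replicates A, B and C of the first control line, and 4, 13 and 4 in the other. Knockout line 1 had 5, 17 and 30 and knockout line 2 had 15, 29 and 19 at day 0. At day 14 all 6 controls had none, and the knockouts had 0 to 4. Over the group, day 0 controls were at least 29.5-fold higher than day 14 controls, taking 3 counts over the group as the floor, and the day 0 knockouts were 24.4-fold higher than those of day 14. The edgeR adjusted p was 2.30e-05 in controls and 0.000114 in knockouts.

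LRRC2, on the other strand at this locus, held 621 to 1339 counts in day 0 controls and 668 to 1383 in day 0 knockouts, where TDGF1 held at most 30. As levels of LRRC2 these were 441, 486 and 688 CPM (lowest, median, highest) and 374, 522 and 645 CPM. All 6 day 14 controls had no count under LRRC2, and the day 14 knockouts had 0 to 2. The pooled ratio of day 0 to day 14 was at least 3386-fold in controls, with the same floor of 3 counts over the group, and 3162-fold in knockouts (95% counting interval 1081 to 15337, which covers counting error only). Fitted log2 fold changes were -13.69 (adjusted p = 3.47e-18) and -11.74 (adjusted p = 4.08e-18). The first has no day 14 count under it and depends on the prior count.

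Counts under MIR302CHG, the name of the host of the miR-302 cluster, stayed high at day 14, and which strand they came from was not tested. Day 0 controls had 5777 to 19129 counts, at 2966, 7295 and 11894 CPM for the lowest, median and highest library. Day 14 controls had 6424 to 11596 counts, at 1891, 2768 and 3176 CPM. The lowest day 0 control, replicate A of line 2, lay within the range of day 14, so the days overlapped. Log2 fold changes were -1.99 (SE 0.33, adjusted p = 2.40e-05) in controls and -2.08 (SE 0.33, adjusted p = 1.14e-05) in knockouts, a ratio of pooled CPM of 2.67 and 3.01. Against a median feature that moved by 0.60, this name fell in both genotypes, and it was called lower in each of 37 alternatives per genotype, with values of -2.20 to -1.78 in controls and -2.47 to -1.72 in knockouts. By replicate letter, the control mean in B was 11575 CPM at day 0 and 2259 CPM at day 14, and in A it was 3467 and 2696 CPM.

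LARP7, the name of the 7SK-binding gene around it, went from high counts to a few, and their strand was likewise not tested. In day 0 controls it had 4408, 10532 and 30509 counts in replicates A, B and C of line 1, while line 2 had 6128, 20089 and 26291. In day 14 controls line 1 had 16, 12 and 17 counts, line 2 only 4, 5 and 3. The lowest day 0 level, 2140 CPM, was far above the highest day 14 level, 5.49 CPM. Log2 fold changes were -12.18 (SE 0.87, adjusted p = 3.86e-10) in controls and -11.18 (SE 0.84, adjusted p = 5.18e-10) in knockouts, and the pooled ratio was 3237 and 1722. The value of 4.54 ± 0.87 CPM in control line 1 and 1.30 ± 0.19 CPM in control line 2 (SD, n = 3) at day 14 did not differ by edgeR (adjusted p = 1.00, unadjusted p = 0.0464). None of the members tested differed between lines 1 and 2 of a genotype (9 at day 0 and 6 at day 14), where 0.0701% of 11408 features did in day 14 controls, 1.73% in day 14 knockouts and 0% in either genotype at day 0.

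L1TD1, the RNA-binding protein gene, had almost no counts left at day 14. Day 0 controls had 83 to 168 counts, at 45.7, 70.3 and 96.1 CPM. Day 14 libraries had 0 to 3 counts in controls and, except for 5 in knockout line 2 replicate A, 0 in knockouts. The fitted log2 fold change was -7.47 (SE 0.70, adjusted p = 5.69e-10) in controls and -8.47 (SE 0.75, adjusted p = 1.02e-10) in knockouts. The pseudogene inside it, ENSG00000237227, described here after its values were seen, had 24.8 ± 35.0 CPM in day 0 controls, with 2 libraries at 0, and 0.49 ± 0.93 CPM in day 14 controls (SD, n = 6), which is -6.06 on the log2 scale (SE 1.63, adjusted p = 0.0047).

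DNMT3B, the de novo methyltransferase gene, was lower at day 14, with few counts on either day. It had 7 to 39 counts in day 0 controls (4.0, 14.6 and 20.03 CPM) and 2 to 19 in day 14 controls (0.65, 3.54 and 5.59 CPM). The lowest day 0 control, at 4.0 CPM, lay within the day 14 range. The log2 fold change was -2.65 (SE 0.70, adjusted p = 0.0029) in controls and -2.28 (SE 0.69, adjusted p = 0.0075) in knockouts. The call was lost without control line 2 (adjusted p = 0.113) and without knockout line 2 (adjusted p = 0.267).

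Counts under LIN28A, the name of the let-7 regulator, moved the other way. Day 0 controls had 5 to 31 counts, at 3.11, 9.98 and 21.4 CPM. Day 14 controls had 88 to 277 counts, at 39.5, 65.7 and 75.6 CPM, all above every day 0 control. Knockouts had 1 to 39 counts at day 0 and 104 to 336 at day 14, again with no overlap. The log2 fold change was 1.94 (SE 0.50, adjusted p = 0.0022) in controls and 1.63 (SE 0.49, adjusted p = 0.0073) in knockouts, larger than the median feature's 0.60 and 0.65. It did not pass without control line 2 (adjusted p = 0.0678) or without knockout line 1 (adjusted p = 0.0943). Day 14 libraries had counts under 20769 to 25247 features and day 0 libraries under 9299 to 15116. The part of that difference in the LIN28A rise was not tested.

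NODAL, the ligand, did not pass the test between days, and the feature facing it fell. Under NODAL, replicates A, B and C of day 0 controls had 13, 11 and 0 counts (line 1) and 2, 3 and 12 counts (line 2). Day 14 controls had 52, 45 and 75 counts (line 1) and 49, 62 and 17 counts (line 2). The levels of 0 to 8.30 CPM at day 0 overlapped those of 7.63 to 24.2 CPM at day 14, and the log2 fold change of 1.29 (SE 0.83, adjusted p = 0.215) did not pass. In knockouts it was 1.46 (SE 0.86, adjusted p = 0.166), and 3.12 (adjusted p = 0.0061) without the day 0 replicate B of line 1. ENSG00000280401, which faces NODAL over 698 bp of exon, had 69.3 ± 64.5 CPM in day 0 controls and 0.25 ± 0.40 CPM in day 14 controls (SD, n = 6). Its counts were 39 to 339 at day 0 and 0 to 3 at day 14, with no overlap, and the log2 fold change was -8.26 (SE 0.78, adjusted p = 6.44e-10) in controls and -9.77 (SE 0.88, adjusted p = 1.33e-10) in knockouts.

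**Figure D2:**
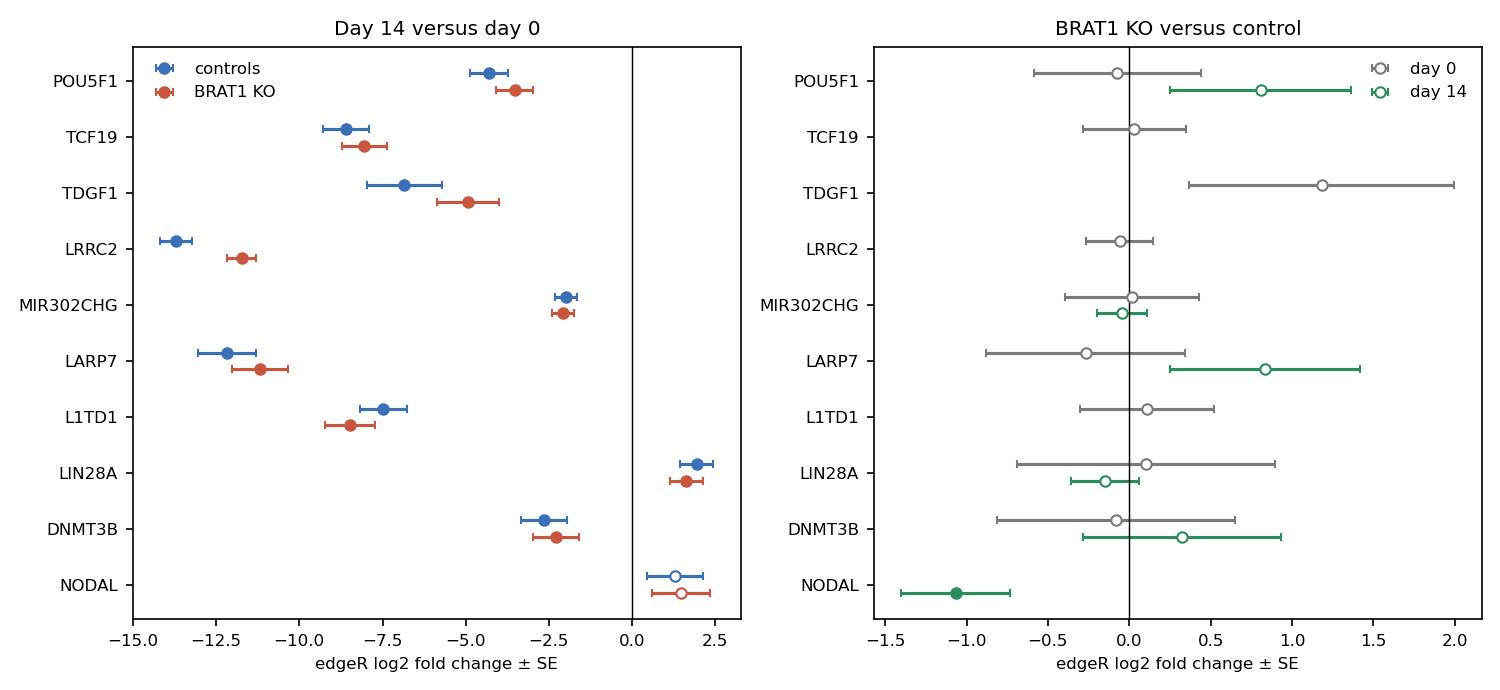
edgeR log2 fold changes with standard errors for day 14 against day 0 in each genotype (left) and for BRAT1 knockout against control on each day (right). Filled points had an adjusted p under 0.05, and a missing point is a name below the filter on low counts. On the left 8 names lie below 0 and LIN28A and NODAL above it, and on the right only NODAL at day 14 is filled.

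The names of a locus were also compared as shares of its counts, which scaling between libraries cannot change. At day 0 MIR302CHG held 46.7 ± 15.2% of the counts of MIR302CHG plus LARP7 in controls and 49.7 ± 8.77% in knockouts (SD, n = 6). The lowest, median and highest day 0 control had 27.8%, 48.7% and 65.0%. At day 14 the share was 99.9 ± 0.0538% in controls and 99.8 ± 0.162% in knockouts, and no library of one day reached the range of the other. The difference between days was 53.2 points in controls and 50.05 points in knockouts, with an exact two-sided permutation p of 0.0022 and an adjusted p of 0.0097 over 9 tests in each case. These are shares of counts under a name and not of RNA. Which strand the counts came from was not tested, and the exons of LARP7 (4083 bp) and MIR302CHG (743 bp) differ in length.

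A split this even was uncommon among facing names at day 0. Over 3254 pairs of overlapping opposite names with at least 100 counts in the 6 day 0 controls, the lesser name held a median of 3.91% of the pair's counts. MIR302CHG and LARP7, with 42.4% under the lesser name, were above 95.2% of those pairs. TDGF1, with 0.864%, was above 30.1% of them, and POU5F1, with 24%, above 83.0%. At day 14 LARP7 was the lesser name with 0.112%, above 6.60% of 4194 pairs whose median was 8.89%.

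POU5F1 held 23.5 ± 8.41% of the counts of its locus in day 0 controls and 22.7 ± 9.53% in day 0 knockouts (SD, n = 6), with TCF19 holding the rest. At day 14 only 3 control libraries and 4 knockout libraries had at least 10 counts over both names, and POU5F1 held 88.9 ± 19.2% and 86.2 ± 15.7% of them. No day 14 library with 10 counts overlapped the day 0 range. The exact two-sided permutation test gave an adjusted p of 0.0536 in controls and 0.0286 in knockouts. Before adjustment these were 0.0238 and 0.0095, each the smallest p that its number of libraries allows. The 2 values therefore do not compare the genotypes. TDGF1 held 0.893 ± 0.765% of its locus in day 0 controls and 2.17 ± 1.24% in day 0 knockouts (exact permutation p = 0.0563, adjusted p = 0.101), and the locus was too low at day 14 for a share.

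**Figure D3:**
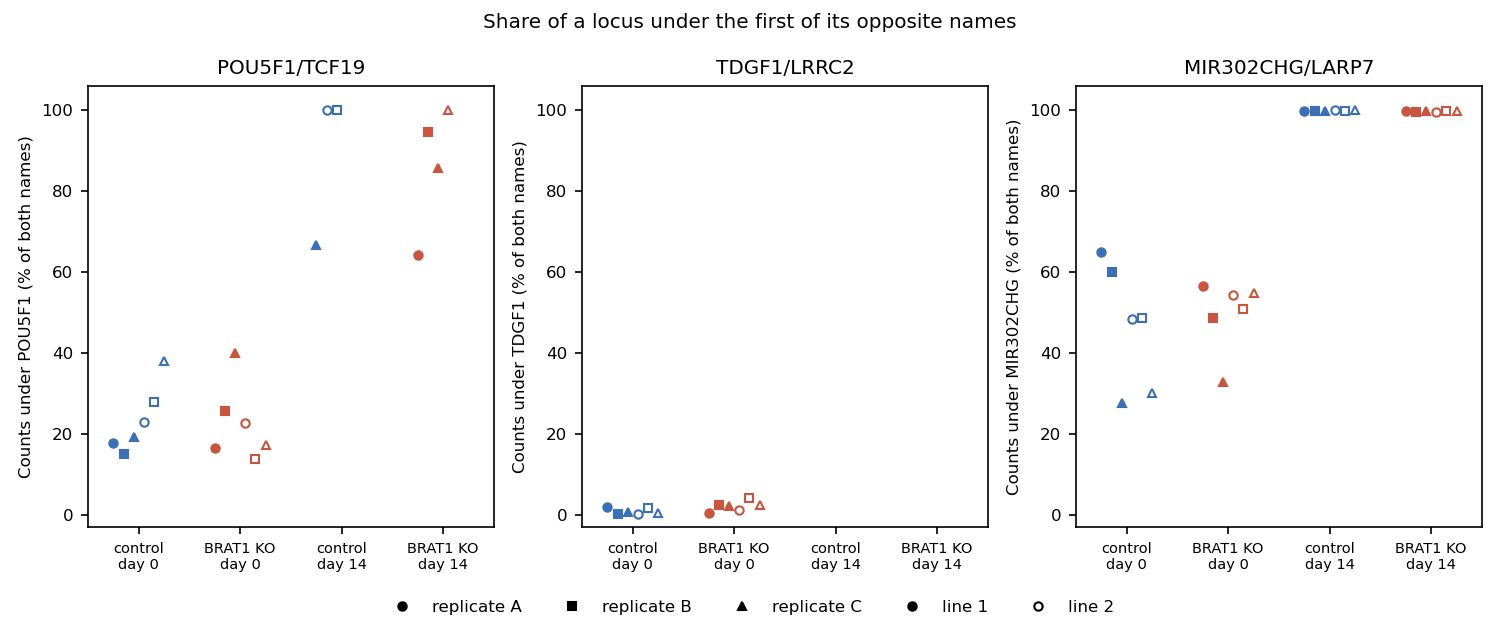
Percent of a locus's counts under POU5F1, TDGF1 or MIR302CHG, with the rest under the facing name, in each library with at least 10 counts over both names (colours, shapes and fills as in the plot of levels). MIR302CHG held 27.8% to 65.0% in day 0 controls and over 99% in every day 14 library, and no day 14 library had 10 counts at the TDGF1 locus.

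Day 0 libraries also differed by replicate letter, for MIR302CHG in the same order in all 4 lines, and the labels call the letters biological replicates. MIR302CHG had 2881 to 3968 CPM in the 4 replicate A libraries, 10743 to 14665 CPM in the 4 of replicate B and 6714 to 7876 CPM in the 4 of replicate C, with no overlap between letters. LARP7 had 2140 to 3147 CPM in replicate A and 6367 to 18175 CPM in replicates B and C, with C above B in both control lines and B above C in both knockout lines. TCF19 was highest in replicate C of both control lines and of knockout line 1, and in replicate B of knockout line 2. LRRC2 ran the other way, with 374 to 450 CPM in replicate B, 442 to 688 CPM in A and 460 to 645 CPM in C. The sources used here do not say what the letters share besides their name. The MIR302CHG share of its locus was lowest in replicate C of both control lines (27.8% and 30.2%) and of knockout line 1 (32.8%), and 54.9% in replicate C of knockout line 2.

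**Figure D4:**
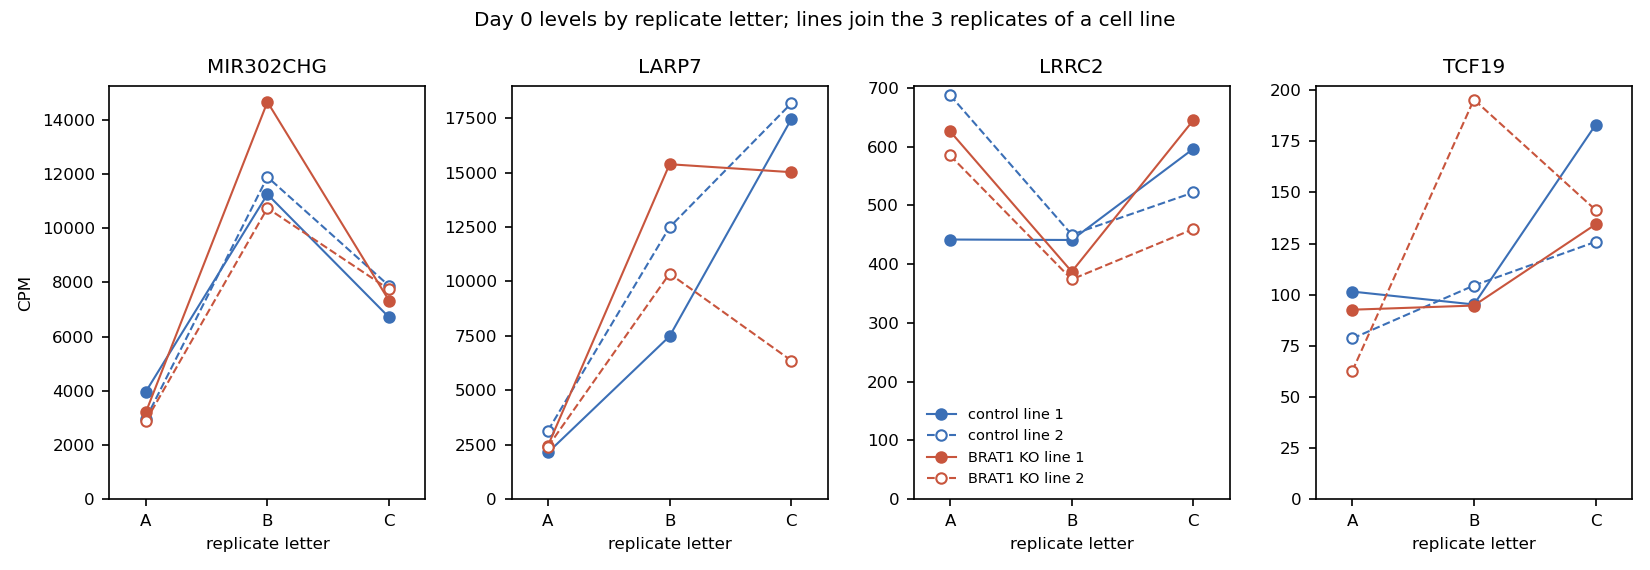
Day 0 level in CPM under MIR302CHG, LARP7, LRRC2 and TCF19 by replicate letter, with a line joining the 3 replicates of each cell line. MIR302CHG is lowest in replicate A (2881 to 3968 CPM) and highest in replicate B (10743 to 14665 CPM) in all 4 lines.

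The next comparison asked what BRAT1 loss changed at these loci within a day. At day 14, 1 of the 6 names that passed the filter on low counts differed by edgeR, against 21.7% of the 11408 features tested, and at day 0 none of 9 did, against 0% of 4832. The day 0 count was 0 by edgeR and by DESeq2, and before adjustment 99 and 868 features, in that order, had a p under 0.05. Below the filter were TCF19, TDGF1, LRRC2 and L1TD1 at day 14 and NODAL at day 0.

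NODAL was the name that differed. Replicates A, B and C of the day 14 knockouts had 9, 24 and 35 counts (line 1) and 20, 24 and 26 counts (line 2), against the 17 to 75 counts of the controls given above. As levels these were 3.35, 7.90 and 9.39 CPM (lowest, median, highest) in knockouts and 7.63, 14.1 and 24.2 CPM in controls. Only replicate C of control line 2, at 7.63 CPM, lay inside the knockout range. The log2 fold change was -1.07 (SE 0.33, adjusted p = 0.0214). It kept its direction in 24 alternatives and its call in 19 of them. The call was lost without control line 1 (adjusted p = 0.224), without knockout line 1 (0.0531) or line 2 (0.0650), without replicate C of control line 1 (0.0784), and when 1 fit held all 24 libraries (0.779). ENSG00000280401, facing NODAL, was below the filter at day 14, with 0.25 CPM in controls and 0.05 CPM in knockouts.

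Markers of cell types moved with genotype on the same day. Summed over 10 neural progenitor markers, with none at 0, day 14 knockouts had 471 to 823 CPM (median 590) and controls 189 to 316 CPM (median 239). Summed over 4 neural crest markers, also with none at 0, knockouts had 19.9 to 50.2 CPM and controls 98.7 to 130 CPM. Over 5 neuron markers, none at 0, knockouts had 65.8 to 197 CPM and controls 20.2 to 55.9 CPM. No pair of these ranges overlapped, and their part in the NODAL difference was not tested. Over 5 fibroblast or mesenchyme markers, 1 at 0 in each group, the ranges of 1.86 to 17.4 CPM (knockouts) and 4.36 to 23.3 CPM (controls) overlapped. The 3 features that face genes of that list, however, summed to 92.3 to 131 CPM in knockouts and 269 to 384 CPM in controls. By edgeR 3 of 3 were lower, where 21.7% of the 11408 features tested were called in either direction. The part of these 3 features was not tested either.

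The other tested names had smaller or less certain differences at day 14. Control libraries had 2666 ± 516 CPM under MIR302CHG and knockout libraries 2584 ± 434 CPM (SD, n = 6), and edgeR gave -0.05 on the log2 scale with an SE of 0.15 (adjusted p = 0.861). LIN28A had -0.15 (SE 0.21) and DNMT3B 0.32 (SE 0.61). LARP7 had 2.92 ± 1.86 CPM and 5.39 ± 3.82 CPM, and POU5F1 2.58 ± 1.07 CPM and 4.61 ± 2.45 CPM, with log2 fold changes of 0.83 (SE 0.59, adjusted p = 0.332) and 0.81 (SE 0.56, adjusted p = 0.324).

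At day 0 the largest difference was under TDGF1, where controls had 4.39 ± 3.30 CPM and knockouts 10.4 ± 4.65 CPM (SD, n = 6). It was 1.18 on the log2 scale, with an SE of 0.82, and did not pass (unadjusted p = 0.163, edgeR adjusted p = 1.00). Within replicate letters the mean TDGF1 level was 5.32 CPM for knockouts and 5.40 CPM for controls in A, 13.0 and 4.40 CPM in B, and 13.0 and 3.38 CPM in C. MIR302CHG had 7446 ± 3666 CPM (controls) and 7762 ± 4501 CPM (knockouts), and its log2 ratio within letters was -0.19, 0.13 and 0.05. LARP7 had 10147 ± 6977 CPM and 8666 ± 5853 CPM, with ratios within letters of -0.12, 0.37 and -0.74. The spread between letters exceeded these differences. Log2 fold changes of the other 6 tested names lay between -0.08 for DNMT3B and 0.11 for L1TD1. NODAL, not tested at day 0, had 4.22 ± 3.67 CPM in control and 1.85 ± 3.35 CPM in knockout libraries (SD, n = 6).

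The difference between the day effects of the genotypes was tested as an interaction. None of the 10 names passed, against 1.47% of 10971 features. TDGF1 (1.91, SE 0.92, adjusted p = 0.318) and LRRC2 (1.96, SE 0.73, adjusted p = 0.288) had the largest values, and both rest on day 14 controls with no count. The other 8 values lay between -0.99 for L1TD1 and 1.00 for LARP7.

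Other genes of these pathways were read from lists by name. Of 45 core pluripotency genes and stem cell RNAs, 21 passed the filter over all 24 libraries, of which 3 were higher and 9 lower at day 14 in controls, against 28.4% higher and 14.4% lower among all features, with a median log2 fold change of -0.35 where all features had 0.60. The 3 with the smallest adjusted p were L1TD1, POU5F1 and ESRG. ESRG, a stem cell long noncoding RNA, had 31.5 CPM at day 0 and 0.33 CPM at day 14 (-6.83 on the log2 scale, SE 0.91, adjusted p = 4.98e-07). Among the rises, LIN28A is described above. In day 14 knockouts 1 of 16 tested list genes was higher and 1, NODAL, was lower, fewer than the 21.7% of all features called. The higher was ESRRB, an orphan nuclear receptor, where controls had 9.50 CPM and knockouts 31.3 CPM (1.70, SE 0.28, adjusted p = 6.41e-05).

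Most names that face a gene of that list were lower at day 14. Of 8 such features 7 were lower and 0 higher in controls, with a median log2 fold change of -6.41, and 8 were lower in knockouts, with a median of -7.69. Among all features 14.4% and 16.5% were lower. They include the members TCF19, LRRC2 and LARP7 and the feature facing NODAL. Of the 8, 5 passed the filter on low counts within day 14. TCF19, LRRC2 and the feature facing NODAL passed only through day 0 and could hardly come out higher. SCLT1, facing the chromatin factor gene JADE1, went from 2634 ± 478 to 159 ± 30.6 CPM in controls (SD, n = 6; log2 fold change -4.57, SE 0.18, adjusted p = 4.72e-19). NUDT6, facing the growth factor gene FGF2, went from 273 ± 122 to 39 ± 8.0 CPM (-3.30, SE 0.25, adjusted p = 4.52e-12). MBLAC2, facing POLR3G and named here after its values were seen, had -3.24 (adjusted p = 0.0093). FOXD3-AS1, facing the transcription factor gene FOXD3, missed the threshold in controls (-1.21, adjusted p = 0.0507) and had -7.34 (adjusted p = 3.52e-10) in knockouts, and the interaction was -6.13 (SE 0.81, adjusted p = 2.81e-05). At day 14 it stood at 48.1 ± 8.97 CPM in controls and at 0.92 CPM with the knockout (-5.72, SE 0.48, adjusted p = 9.05e-09). SCLT1 was the other of 5 tested names that was lower in day 14 knockouts (-0.45, SE 0.15, adjusted p = 0.0317), where 21.7% of all features were called in either direction.

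Of 24 NODAL pathway genes 10 were tested across days, and 3 were higher and 2 lower in controls, near the 28.4% and 14.4% of all features. The type I receptor gene ACVR1B had no count in day 0 controls and 4.12 CPM at day 14 (adjusted p = 0.000956). FOXH1, the DNA-binding partner of SMAD proteins, fell from 50.4 to 29.1 CPM (-1.31 on the log2 scale, SE 0.40, adjusted p = 0.0091). KIFC2, a kinesin gene facing FOXH1, fell much further, from 222 ± 58.6 to 0.57 ± 0.95 CPM (SD, n = 6; -8.99, SE 0.70, adjusted p = 2.13e-11). In day 14 knockouts 3 of 9 tested genes were higher and 2 lower, where 21.7% of all features were called. SMAD2, a signal transducer of the pathway, had 2.79 CPM without and 8.80 CPM with the knockout (1.62, SE 0.49, adjusted p = 0.0181), and the type II receptor gene ACVR2A had 17.8 and 31.3 CPM (0.81, SE 0.24, adjusted p = 0.0171). PCSK6, a protease that processes NODAL, was lower, at 77.1 and 48.7 CPM (-0.67, SE 0.17, adjusted p = 0.0052). Of 3 tested features facing genes of this list 1 was higher and 1 lower, against the same 21.7%. ENSG00000223911, facing ACVR2A, had 0.70 (SE 0.19, adjusted p = 0.0091). SNRPA1-DT, facing PCSK6, had -0.80 (SE 0.23, adjusted p = 0.0128).

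Of 20 genes of the LIN28 and let-7 axis 15 were tested across days, and 7 were higher and 0 lower in controls, against 28.4% and 14.4% of all features, with a median log2 fold change of 1.46. IGF2BP2, an RNA-binding protein gene that is a let-7 target, went from 6.33 to 291 CPM (4.99, SE 0.51, adjusted p = 2.62e-09), DROSHA, the nuclear microRNA processing enzyme, from 1.36 to 17.9 CPM (3.15), and MYCN from 4.06 to 62.8 CPM (3.38). XPO5, the exporter of microRNA precursors, was the 1 gene of 16 tested that differed in day 14 knockouts (21.7% of all features did), where controls had 48.6 CPM and knockouts 78.2 CPM (0.67, SE 0.18, adjusted p = 0.0070). POLR1C, the name facing XPO5, went the other way, from 447 CPM in controls to 338 CPM in knockouts (-0.42, SE 0.13, adjusted p = 0.0253). It was the 1 of 5 tested facing features that differed, against the same 21.7%. Among DNA methylation genes, DNMT3B was lower at day 14 in controls, and TET1, which oxidises methylated cytosine, was higher (2.46, SE 0.97, adjusted p = 0.0403). Of 12 genes of the 7SK particle and P-TEFb, 7 were tested across days. In controls 1 name, LARP7, was lower and 1, HEXIM1, was higher, against 14.4% lower and 28.4% higher among all features. HEXIM1, the P-TEFb inhibitor bound to 7SK, went from 5.09 to 116 CPM (4.07, SE 0.69, adjusted p = 1.93e-05). ZCWPW1, facing the 7SK capping enzyme gene MEPCE, went from 113 ± 49.8 to 32 ± 13 CPM (SD, n = 6; -2.35, SE 0.38, adjusted p = 1.01e-05).

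Likeness of pattern was measured as Pearson's r of log2(CPM + 1) over the 24 libraries, among 8273 features with a mean of at least 5 CPM. The libraries share the 2 days, so most of each value is the difference between days, and it is a description only. TCF19 was most like LRRC2 (r = 0.99), ERCC1 and HNRNPA2B1 (r = 0.98 each). LARP7 was most like HNRNPA2B1 (r = 0.99), and L1TD1 most like ENSG00000227050, which faces SMPDL3B (r = 0.98). LIN28A was most like ASB16 (r = 0.94), and NODAL most like YY1AP1 (r = 0.87). MIR302CHG was most like ENSG00000273149 (r = 0.96), which faces TPT1. MIR302CHG and LARP7 had r = 0.82 over 24 libraries, 0.81 over the 12 of day 0, where they share the replicate letters, and 0.23 over the 12 of day 14.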

How the data were processed

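Each library has 1 table of gene-level read counts, which the authors deposited without normalization. The submitters' processing notes name bcl2fastq 2.20.0, STAR 2.7.9a, Subread 2.0.1 (featureCounts), GRCh38, and DESeq2 1.34.0 under R 3.5.1. The sources used here name neither an annotation release nor a strand setting. GENCODE release 29 placed 57039 of 61248 features, with 90.1% of all counts; it may differ from the release behind the tables.

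The test was edgeR's quasi-likelihood F test (version 4.0.16, TMM, filterByExpr, robust fit, R 4.3.3) over all features, with Benjamini-Hochberg adjusted p under 0.05 as the threshold. Standard errors are the log2 fold change over the square root of F. Genotypes were compared within a day (6 against 6 libraries), days and their interaction in 1 fit of 24. CPM values are scaled to the total count of the library. Locus shares used an exact two-sided permutation test over libraries with at least 10 counts.

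Members and lists were chosen with earlier results of these data known. Named genes are the 10 members, BRAT1, facing features with at least 24 counts and at least 100 bp of exon overlap or holding the member in their body, up to 3 genes per list with the smallest adjusted p in KO against control at day 14 and in day 14 against day 0 in controls, and for each member with a mean of at least 5 CPM the 3 most alike features over 24 libraries and over the 12 of day 14. Replicate letters were checked for pairing: day 0 libraries of the same letter and different genotype had correlated deviations (r 0.0475 to 0.186), and those of day 14 did not (-0.282 to 0.0498). Day 0 pairs of different letters and different lines ran from -0.135 to 0.0172, below every same-letter pair of that day. Not every same-letter correlation was over 0.1, so no block was used in the main comparisons. Alternatives tried included DESeq2 1.42.0 and RLE scaling, a replicate block, no filter, line sums, thinning to 1407832 counts, leaving out 9 features above 1% of counts, other sets of libraries per model, and omission of every line or library in turn. A block within each day was added after seeing the data. Some results of the DNA methylation list are not reported here. Scripts were tested on simulated data.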

Additional observations from a re-analysis of the deposited data

Results flagged for a closer look

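In 4 of 47 sets of 6 libraries tested, 1 library stood apart from the other 5 by Dixon's test, where chance gives about 1 in 20. POU5F1 in day 0 knockouts was highest in replicate C of line 1, at 89.6 CPM. NODAL in the same group was highest in replicate B of line 1, at 8.60 CPM. L1TD1 in day 14 knockouts was highest in replicate A of line 2, at 1.75 CPM, which is 5 counts. The share of MIR302CHG in its locus was lowest in day 0 knockouts in replicate C of line 1, at 32.8%.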

How the results depend on the processing

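Depth limits TDGF1, DNMT3B, NODAL and LIN28A at day 0 and every name but MIR302CHG, LIN28A and NODAL at day 14, where a library holds few counts. Of the members' day calls, those of POU5F1, TCF19, TDGF1, LRRC2, MIR302CHG, LARP7 and L1TD1 held in both genotypes in every alternative run, while DNMT3B and LIN28A each lost 1 of 37 in either genotype. Fitted values of names with few day 14 counts moved without losing their call. TCF19 in knockouts was -11.68 without KO line 1, in controls -11.23 without control line 1, and L1TD1 in knockouts -10.87 without day 14 replicate A of line 2. LARP7 in controls was -13.39 without control line 1. DESeq2 called NODAL higher at day 14 in knockouts (adjusted p = 0.0376).

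With the replicate block, features called numbered 2256 and 0 for KO against control at day 14 and day 0, 4877 and 5279 for the days in controls and knockouts, and 125 for the interaction. It changed no member's call. The sources used here do not say whether same-letter libraries are paired by design. For KO against control at day 14 (2474 called), the count was 241 when 1 fit held all 24 libraries, and 1552 and 1266 on leaving out control lines 1 and 2. At day 0 it was 13 with no filter, 1 with line sums, 1 without control line 1 and 116 with all 24 libraries. For the days in controls (4699) it was 7288 with DESeq2 and 2926 without control line 2, and in knockouts (5077) 8947 with DESeq2 and 8739 with no filter. With a replicate block within each day it was 5450 and 5801, and no member's call changed. For the interaction (161) it was 549 with DESeq2, 792 with no filter, 28 with line sums, 40 and 16 without control lines 1 and 2, 23 and 58 without KO lines 1 and 2, 100 after thinning, and 91 to 259 without each library. RLE scaling split the day calls 3654 higher and 1349 lower in controls and 4123 and 1405 in knockouts, against 3115 and 1584 and 3265 and 1812 with TMM. The cause was not tested.

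Signs turned only where no call was made. For KO at day 14, MIR302CHG was 0.087 without control line 1 and 0.015 after thinning, and DNMT3B -0.12 without KO line 1. At day 0, POU5F1 was 0.068 with line sums, 0.37 without control line 2, 0.29 without KO line 2 and 0.034 with all 24 libraries. TCF19 was -0.12 without control line 2 and -0.12 without KO line 2. Without KO line 2, LRRC2 was 0.059, LARP7 0.088 and LIN28A -0.39. MIR302CHG was -0.036 with the replicate block and -0.094 without KO line 1, and DNMT3B 0.42 without control line 2 and 0.25 without KO line 1. For the interaction, TCF19 was -0.15 without control line 2 and -3.12 without KO line 1. MIR302CHG was 0.088 with DESeq2, 0.090 with RLE and 0.029 without KO line 1. LIN28A was 0.16 without KO line 2. DNMT3B was -0.011 without control line 2 and -0.36 without KO line 1. NODAL was -0.016 with line sums, -0.0011 without control line 1 and -0.54 without KO line 2.

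Without each library in turn, KO against control at day 0 ran from -0.30 to 0.15 for DNMT3B, -0.066 to 0.33 for L1TD1, -0.21 to 0.40 for LIN28A, -0.14 to 0.021 for LRRC2, -0.28 to 0.21 for MIR302CHG, -0.53 to 0.29 for POU5F1 and -0.16 to 0.20 for TCF19. At day 14 it ran from -0.034 to 0.54 for DNMT3B and -0.18 to 0.026 for MIR302CHG, and the interaction from -0.29 to 0.16 for MIR302CHG and -0.13 to 1.82 for NODAL.

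Of the locus shares, that of POU5F1 for KO against control turned to 5.37 points at day 14 with line sums, and at day 0 to 0.040 with line sums, 5.32 without control line 2 and 3.84 without KO line 2. The MIR302CHG share for KO against control at day 0 turned to -1.20 without control line 2 and -0.660 without KO line 2. Fewer libraries cannot reach the threshold in the exact test. The day difference of POU5F1 in knockouts then did not pass, at 67.5 points with line sums and 54.2 without KO line 2. Nor did that of MIR302CHG, at 57.4 with line sums, 57.4 without control line 1 and 48.9 without control line 2, and in knockouts at 52.3 with line sums, 46.3 without KO line 1 and 53.8 without KO line 2.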

Other observations

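Likeness was also read within 1 day. Over the 12 day 0 libraries, which were looked at after the values were seen, MIR302CHG was most like EOGT-DT (r = 0.96) and LARP7 most like ENSG00000272742, which faces PAIP2 (r = 0.98). TCF19 and LARP7 had r = 0.63 there and LRRC2 and LARP7 -0.26, and libraries of 1 letter lie together in these values. Over the 12 day 14 libraries LIN28A was most like CNN2 (r = 0.94) and MIR302CHG and LIN28A had r = -0.71. No test was made of these values.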
